A study of Mus musculus with 40 samples.

Results

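Edited DARLIN arrays that were both abundant and built from several separate edits are described here for 1 mouse liver library. The members were chosen by 2 measured values, a UMI count of 10 or more and 2 or more listed events. They are 248 of the 12767 alleles in the library and hold 5026 of its 32342 UMIs (15.54%, 95% exact binomial interval 15.1 to 15.9%). The library is the right inferior liver lobe of animal YK184, a DARLIN mouse marked E15.5. The labels do not define the mark E15.5 (induction or collection), and they give no treatment, genotype detail, sex or age for the animal. The series holds 40 liver samples, from 5 animals by their titles, which fall into 18 combinations of stage and lobe. Files were analysed for 1 of them, so no groups were compared and no value has replicates. Intervals throughout cover counting error within this library only, and no test was run between sets of alleles.

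DARLIN mice carry a transgenic array of Cas9 targets whose RNA can be sequenced. The cutting enzyme is joined to TdT (terminal deoxynucleotidyl transferase), which lengthens open DNA ends without copying a template. A cut array is repaired with lost or added bases, and daughter cells inherit the altered array, called an allele. Cells with the same allele can descend from 1 edited cell or can have gained the same edit independently. A unique molecular identifier (UMI) marks 1 RNA copy at reverse transcription, so UMIs count transcripts and not cells. More UMIs can come from more cells or from more RNA per cell, which cannot be told apart in bulk tissue. The array analysed was amplified from the locus of Col1a1, a gene for a type I collagen chain. In GRCm38.p6 that gene occupies chromosome 11 from 94936224 to 94953042, and where the array sits relative to it is not stated in the labels. Positions below are numbered along the array, whose first base is 1 and which has 10 targets in a repeat unit of 27 bases. The expected cuts of targets 1, 2, 9 and 10 lie after bases 22, 49, 238 and 265.

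The most frequent layouts of abundant multi-event alleles paired 1 large deletion joining targets with 1 small edit at the outer target it spared. Of the 248 members, 165 had 2 events (66.5%, 60.3 to 72.4%), 66 had 3, 13 had 4, 3 had 5 and 1 had 6. In 72 members a deletion ran from target 1 to target 9 and target 10 carried its own edit. In 49 members target 1 carried its own edit and a deletion ran from target 2 to target 10. These mirror-image layouts made up 121 members (48.8%) with 3046 UMIs. They were 7.56% and 4.75% of all alleles in the library. The other 127 members were spread over 42 further layouts, of which 25 had 1 member each. Next came a deletion from target 1 to 8 with separate edits at 9 and 10 (17 members, 6.85%, against 6.38% of all alleles). A deletion from 2 to 9 flanked by edits at 1 and 10 followed (13 members, 5.24%, against 6.13%). A pair of deletions that joined targets 1 to 2 and 3 to 10 had 11 members (4.44%, against 1.06%). Separate edits at 1 and 2 with a deletion from 3 to 10 also had 11 members (4.44%, against 6.27%).

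The longest stretches of added bases are printed first. In 13 members at least 1 event held 8 or more inserted bases (5.24%, 2.82 to 8.80%). The share was higher in the rarer multi-event alleles, at 11.97% (11.4 to 12.6%). At equal event number the intervals overlapped. Members and rarer alleles had 2.42% and 4.93% with 2 events, 9.09% and 5.83% with 3, and 17.6% and 21.8% with 4 or more. Every base printed in capitals is an inserted base, read 5′ to 3′ as the deposited list gives it.
Deletion of bases 76 to 216, in an allele of 14 UMIs: TATCGACTCCATATGCGC
Deletion of bases 25 to 72, in an allele of 12 UMIs: TGTGCGTACAGTCGCG
Insertion after base 23, in an allele of 11 UMIs: ACGACTCGCGCATAGC
Deletion of bases 23 to 153, in an allele of 12 UMIs: TCGACGAGCGCGCTC
Deletion of bases 223 to 265, in 2 alleles of 14 UMIs each: TGTCGACTCCATCG
Deletion of bases 154 to 265, in an allele of 14 UMIs: CGACTCCATCG
Deletion of bases 36 to 153 in an allele of 17 UMIs, and of bases 36 to 150 in one of 12 UMIs: TCGACTCCA
Deletion of bases 23 to 241, in an allele of 14 UMIs: ACGATGGAG
Deletion of bases 23 to 65, in an allele of 32 UMIs: ACCGATGG
Deletion of bases 224 to 265, in alleles of 35 and 16 UMIs: CTCCATCG
Deletion of bases 25 to 30, in an allele of 17 UMIs: TCAGCGTC
Deletion of bases 23 to 69, in an allele of 14 UMIs: ATCTGCGT
Deletion of bases 88 to 102, in an allele of 10 UMIs: TGAGCGCT
Most of these events recurred in the library: of 14 distinct events with 8 or more added bases, 11 were found in 3 or more alleles and 3 in 1 allele each. The event of bases 223 to 265 with its insert occurred in 122 alleles, that of bases 224 to 265 in 95 and that of bases 154 to 265 in 47. The stretch of 16 bases after base 23 and the 8 bases between 23 and 65, like those between 88 and 102, were each found in 1 allele. The word GACTCCA occurred in the inserts of 5 of the 16 members that held an insert of 7 or more bases (31.2%, 11.02 to 58.7%), against 583 of 1635 rarer multi-event alleles with such an insert (35.7%, 33.3 to 38.0%). No array sequence was used here, so the origin of these stretches was not examined.

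Most added bases were short and rich in purines. Members carried 178 insertions, of which 98 added 1 base and 177 added 1 to 3 bases (99.4%, 96.9 to 99.99%). In multi-event alleles with 1 to 9 UMIs, 95.2% of insertions added 1 to 3 bases (94.8 to 95.5%). G made up 49.3% (43.3 to 55.3%) and A 36.6% of the 284 bases in the members' insertions, while C and T made up 7.04% each. G was 42.1% (41.5 to 42.7%) in the rarer alleles. Together A and G were 85.9% (81.3 to 89.7%) in members and 80.9% (80.4 to 81.4%) in the rarer alleles, with intervals that overlapped at their edge. Deletions with inserted bases differed from plain insertions: A and G were 55.5% (50.5 to 60.4%) of their 400 added bases in members and 50.5% in the rarer alleles. Of these events, 26.0% added 4 or more bases in members (18.5 to 34.7%), against 39.5% in the rarer alleles (38.6 to 40.4%).

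The outer cuts took most of the members' insertions. An insertion lay exactly at the cut of target 10 in 81 members and at the cut of target 1 in 60. Either cut held one in 54.8% of members (48.4 to 61.1%) and in 61.9% of the rarer multi-event alleles (61.0 to 62.7%). These intervals overlapped at their edge. The members' share was the higher one with 2 events, 58.2% (50.3 to 65.8%) against 45.4% (43.6 to 47.3%). It was the lower one with 3 events, where the intervals were 37.4 to 62.6% and 65.3 to 68.1%. At 4 or more events the intervals overlapped, with 41.2% (18.4 to 67.1%) and 66.6% (65.3 to 68.0%). At target 10 the added bases were G in 16 members, GG in 13, AG in 12 and A in 11. At target 1 they were G in 20 members, A in 15, and GG, GA and T in 6 each. Single G thus led at both ends, with 19.8% at target 10 (11.7 to 30.1%) and 33.3% at target 1 (21.7 to 46.7%). The same single G was 14.1% and 22.5% of the insertions at targets 10 and 1 in the rarer alleles, inside the members' wide intervals. Small deletions without added bases also recurred: bases 23 to 25 were lost in 15 members, bases 266 to 268 in 9 and bases 262 to 267 in 8. In the same order, these deletions were in 2.40%, 1.84% and 0.932% of all alleles in the library.

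Fewer members than rarer multi-event alleles carried added bases. Inserted bases in any event were present in 201 of 248 members (81.0%, 75.6 to 85.7%) and in 11398 of 12088 multi-event alleles with 1 to 9 UMIs (94.3%, 93.9 to 94.7%). Among the 53 alleles with 10 or more UMIs and 1 event the share was 52.8% (38.6 to 66.7%). Members had fewer events, and each event is a further chance to carry bases, so the share was also taken at equal event number. With 2 events it was 78.2% in members (71.1 to 84.2%) and 83.5% in the rarer alleles (82.1 to 84.9%), intervals that overlapped. With 3 events it was 87.9% (77.5 to 94.6%) and 95.7% (95.1 to 96.3%). With 4 or more events it was 82.4% (56.6 to 96.2%, 17 members) and 99.1% (98.8 to 99.3%). Members with deletions alone numbered 45 (18.1%), and the rarer alleles of this kind 650 (5.38%). With 2 events these shares were 21.8% (15.8 to 28.9%) and 15.9% (14.6 to 17.3%), intervals that overlapped. Total added bases per allele had a median of 2 in members (quartiles 1 and 3, maximum 40) and of 4 in the rarer alleles. At equal event number these medians were 1 and 2 bases with 2 events, 3 and 3 with 3 events, and 3 and 4 with 4 events.

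Members kept short arrays. The median remaining length was 62 bases (exact interval 62 to 63, range 29 to 113) of an unedited 276, against 91 bases (range 26 to 227) for multi-event alleles with 1 to 9 UMIs and 34 bases for single-event alleles with 10 or more UMIs. Lengths fell in bands about 1 repeat unit apart: 153 members had 50 to 69 bases, 54 had 80 to 99, 22 had under 50, 12 had 70 to 79 and 7 had 100 or more. Event number went with the band. Members with 2 events had a median of 61 bases, those with 3 events 83.5 bases and those with 4 or more 89 bases. At 2 events the rarer alleles had a median of 62 bases, 1 base from the members. At 3 events the rarer alleles had 89 bases and the members 83.5 (exact interval 80 to 87). At 4 events the members had 86 (80 to 107, 13 members) and the rarer alleles 115 (114 to 115). The shortest member lost bases 19 to 234 and 237 to 270 with GGA added, and kept 29 bases in 38 UMIs. The joint longest kept 113 bases: one had 4 events and 13 UMIs, including the substitution C50G, in which the unedited base stands before the position and the new base after it. The part of PCR in the shorter lengths of abundant alleles was not tested.

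Nearly all members were edited at every target. All 10 targets were altered in 240 members (96.8%, 93.7 to 98.6%), against 89.7% (89.2 to 90.3%) of the rarer multi-event alleles. The other 8 members each spared 1 target, which was target 9 in 5 of them. At equal event number the shares were 96.4% in members (92.3 to 98.7%) and 82.2% in the rarer alleles (80.7 to 83.6%) with 2 events. With 3 events they were 98.5% (91.8 to 99.96%) and 91.4% (90.5 to 92.2%), with intervals that overlapped at their edge. At 4 or more events the intervals overlapped, with 94.1% (71.3 to 99.9%) and 92.5%. A single joining deletion was present in 174 members, 2 in 67, and 3 or more in 7.

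UMIs were unevenly spread over the members. The median was 14 UMIs (quartiles 11 and 22) and the maximum 157. Of the 248, 170 had 10 to 19 UMIs, 65 had 20 to 49, 10 had 50 to 99 and 3 had more. The 62 largest held 2516 UMIs, just over 50% of the members' total, and the 10 largest held 18.2%. At the lower limit of 10 UMIs stood 39 members, and 52 multi-event alleles with 9 UMIs lay just outside it. Those at 10 had a median remaining length of 64 bases and those at 9 had 67.5.

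The 10 largest members all had 2 events, and 9 of them kept 61 to 64 bases. The largest gained GG after base 22 and lost bases 50 to 263, with 157 UMIs (0.485% of UMIs, exact interval 0.413 to 0.567%). A loss of bases 23 to 238 accounted for 4 of the next 6, with GG after base 265 in 127 UMIs, A in 101, G in 95 and AG in 74. This deletion runs exactly between the cuts of targets 1 and 9. A loss of bases 23 to 240 with ACG added, together with C after base 266, had 96 UMIs. An A after base 22 with a loss of bases 50 to 264 had 79 UMIs. The remaining 3 were a loss of bases 23 to 250 with A after base 265 (68 UMIs, 49 bases left), a G after base 22 with a loss of bases 50 to 265 replaced by G (59 UMIs), and a loss of bases 23 to 237 with G after base 265 (58 UMIs). The counting intervals of all 9 pairs of neighbours in this order overlapped (133 to 184 UMIs for the first, 106 to 151 for the second, 82.3 to 123 for the third).

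Some edits recurred in many members, but most kinds of event occurred in 1 member. The 248 members carried 601 events of 291 kinds, of which 210 kinds occurred in 1 member and 27 in 5 or more. The 5 events held by most members were G after base 22 (20 members, 877 alleles), the loss of bases 23 to 238 (16 members, 78 alleles), G after base 265 (16 members, 706 alleles), A after base 22 (15 members, 778 alleles) and the loss of bases 23 to 25 (15 members, 307 alleles). The joining deletion was thus the one of these 5 events found in the fewest alleles of the library. By UMIs it was not the lowest, with 841 against 794 for the loss of bases 23 to 25. Every event of the allele was found in at least 1 other allele for 217 members (87.5%, 82.7 to 91.3%) and for 66.3% (65.5 to 67.1%) of the rarer multi-event alleles. With 2 events this held for 93.9% of members (89.1 to 97.1%) and 73.5% of the rarer alleles (71.8 to 75.2%). With 3 events the shares were 81.8% (70.4 to 90.2%) and 74.2% (72.9 to 75.5%), with overlapping intervals. With 4 or more events the members' share was the lower one, 47.1% (22.98 to 72.2%, 8 of 17) and 54.7% (53.3 to 56.1%), again with overlapping intervals.

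Each member's UMIs were then set beside the number that its events would give if combined independently. This product value is the library's 32342 UMIs times, for each event, the share of alleles that hold it. It is no calibrated expectation. Events that overlap cannot occur together, an array can hold only a few large deletions, and every further event lowers the product. A listed allele has at least 1 UMI and a member at least 10, so a smaller product gives a ratio above 1 by construction. The members were selected on the UMIs in this comparison, so the values are a description. The UMIs were below the product in 2 members, 2 to 10 times above it in 75, 10 to 100 times in 74 and over 100 times in 97. The median log2 ratio was 5.14 (exact interval 3.99 to 6.14).

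The ratio differed more between event numbers than between UMI classes, and every further event lowers the product by construction. With 2 events the median log2 ratio was 3.40 in members (3.15 to 3.66), 4.32 in alleles with 3 to 9 UMIs and 3.53 in those with 1 UMI. The median of alleles with 1 UMI lay within the members' interval. The product itself did differ. Its median was 1.73 UMIs in members (1.28 to 2.09), 0.214 at 3 to 9 UMIs, 0.125 at 2 UMIs and 0.0865 at 1 UMI (0.0722 to 0.0982). The events of the abundant alleles were thus found in more alleles, the member itself counted among them.

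With 3 or 4 events the members did not have the highest median product. Among the rarer alleles with 3 events the product did rise with UMIs. It went from 0.00138 (0.00116 to 0.00157) at 1 UMI to 0.00305 (0.00214 to 0.00429) at 3 to 9 UMIs. With 3 events the median product was 0.00248 UMIs in members (7.12e-04 to 0.0197), 0.00305 at 3 to 9 UMIs, 0.00177 at 2 UMIs and 0.00138 at 1 UMI, so the members' interval held all of these. With 4 events it was 2.30e-07 in the 13 members (8.33e-10 to 3.86e-06), 9.91e-07 at 3 to 9 UMIs, 3.27e-06 at 2 UMIs and 3.36e-06 at 1 UMI. The median log2 ratio at 3 events was 12.21 in members (8.99 to 14.54) and 9.79 at 1 to 9 UMIs. At 4 events it was 25.98 (21.68 to 34.37) and 18.65 (18.37 to 19.01). These values rest on few members and on events seen in very few alleles: the rarest event of a 4-event member occurred in a median of 1 allele, the member itself.

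The 2 members below their product had the same shape. A loss of bases 23 to 211 with A added and a G after base 265 had 10 UMIs, against a product of 14.7. A loss of bases 23 to 214 with GG after base 265 also had 10 UMIs, against a product of 14.1. The counting interval of 10 UMIs, 4.80 to 18.4, held both products. In both alleles the deletion ended at target 8, and target 9 was left unaltered. Of the 107 alleles with the loss of bases 23 to 214, 95 also carried an edit at target 9 (88.8%), and of the 105 with the loss of bases 23 to 211 and A, 92 did (87.6%). The 3 next lowest ratios were 2.46 for a loss of bases 23 to 239 with G after base 265 (10 UMIs), 2.57 for a loss of bases 23 to 214 with AA after base 265 (13 UMIs) and 2.95 for a loss of bases 23 to 237 replaced by A with G after base 265 (12 UMIs).

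The highest ratios belonged to alleles with 4 to 6 events, for which the product multiplies the most shares. The only member with 6 events had 35 UMIs and a product of 1.97e-13, and 2 of its events were found in no other allele. The 3 members with 5 events had 38, 14 and 11 UMIs. That with 38 UMIs consisted of 5 plain deletions, of bases 18 to 36, 50 to 131, 151 to 170, 185 to 186 and 212 to 267, with a product of 1.25e-10 and 97 bases left. That with 11 UMIs held the substitution C104G and 4 deletions, with a product of 2.99e-11. Next came a pair of 4-event members with 22 and 10 UMIs and products of 8.69e-10 and 4.38e-10. The most abundant 4-event member had 23 UMIs and lost bases 24 to 35, 46 to 51, 60 to 243 and 266 to 268, with a product of 9.48e-06. The most abundant 3-event member had 28 UMIs: A after base 22, AG after base 49 and a loss of bases 77 to 268, with a product of 0.173.

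Relatives of a member, meaning other alleles of the same event number that share all its events but 1, were fewer the more events a member had. Members with 2 events had a median of 77 such relatives (0 to 164) and those with 3 events 4.5 (0 to 42). All 17 members with 4 or more events had none. Most rarer alleles of that event number had none either. No relative was found for 85.4% (84.4 to 86.4%) of the alleles with 4 or more events and 1 to 9 UMIs, whose interval overlaps the 80.5 to 100% of the members. At 3 events, 22.7% of members (13.3 to 34.7%) and 30.7% of rarer alleles (29.4 to 32.1%) had no relative. The most abundant 3-event member had 23 relatives with 68 UMIs in all, while the third, a loss of bases 16 to 25, 35 to 166 and 185 to 264 in 24 UMIs, had none; it was picked after its values were seen.

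A narrower comparison was made for the 165 members with 2 events, and it was chosen after the data had been seen. Only alleles with the same layout of targets were used. Events of the same layout can still overlap, as the losses of bases 22 to 70 and 63 to 264 do. Such pairs were not removed. The expected number was the UMI total of the first event times that of the second, divided by the UMIs of the layout. These totals include the member itself. The median ratio was 1.78 (log2 0.83, exact interval 0.58 to 1.15), with 30 members below 1, 60 at 1 to 2, 34 at 2 to 5, 24 at 5 to 10 and 17 at 10 or more. Of the 165, 88 lay between 0.5 and 2 and held 2213 of their 3838 UMIs. In the layout with a deletion from target 1 to 9 the median was 1.43 over 72 members, and in its mirror image 1.5 over 49 members. The other 2-event layouts had higher medians, on fewer members each. They ran from 1.59 for deletions of targets 1 to 7 and 8 to 10 (9 members) to 10.2 for 1 to 4 and 5 to 10 (2 members). Deletions of targets 1 to 2 and 3 to 10 had a median of 7.94 over 11 members.

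The joining deletions with the most members differed in some of the small edits they were paired with. The loss of bases 23 to 238 occurred in 74 alleles of its layout with 816 UMIs, and 16 of these alleles were members. Its UMIs carried GG after base 265 in 15.6% (13.1 to 18.2%), against 8.84% (7.87 to 9.88%) of the UMIs with other deletions of that layout. For A the shares were 12.4% (10.2 to 14.8%) and 10.3% (9.29 to 11.4%), for G 11.6% and 10.5%, for AG 9.07% and 8.17%, and for GA 6.13% and 5.72%. The intervals of A, G, AG and GA overlapped and that of GG did not. For each deletion named here, a pair's share is the UMIs of 1 allele, and only pairs that were members were compared. The pairs were thus chosen by their UMIs, and the shares are a description. An edit rare in the layout could enter only where it reached 10 UMIs with the deletion, which favours a higher share by construction. The C after base 266 was less frequent with this deletion, at 4.29% (3.01 to 5.92%) against 7.47% (6.58 to 8.44%). A loss of bases 266 to 268 was also less frequent, at 2.21% (1.31 to 3.46%) against 5.88% (5.08 to 6.76%). A loss of bases 264 to 265 was more frequent, at 2.33% (1.41 to 3.61%) against 0.795% (0.515 to 1.17%). So were GT after base 265, at 2.94% (1.89 to 4.34%) against 0.826% (0.541 to 1.21%), and AC after base 266, at 1.23% (0.589 to 2.24%) against 0.286% (0.131 to 0.542%). The other member pairs of this deletion had overlapping intervals. The loss of bases 23 to 250, in 50 alleles with 474 UMIs and 13 members, was paired more often with small deletions. Its pairing was less frequent with several insertions and more frequent with AGA and AGT after base 265. It was paired with a loss of bases 266 to 268 in 11.4% of its UMIs (8.68 to 14.6%), against 4.27% (3.63 to 4.997%) with other deletions. It was paired with a loss of bases 262 to 267 in 9.92% (7.38 to 13.0%), against 3.12% (2.57 to 3.76%). Its share with G after base 265 was lower, at 6.54% (4.49 to 9.16%) against 11.3% (10.2 to 12.4%). GG was likewise lower, at 6.54% against 10.7% (9.71 to 11.8%), as were AG, at 5.27% (3.44 to 7.69%) against 8.77% (7.85 to 9.76%), and GA, at 2.74% (1.47 to 4.64%) against 6.22% (5.44 to 7.07%). For A the share was the higher one by a small margin, at 14.3% (11.3 to 17.8%) against 10.3% (9.28 to 11.3%), with intervals that overlapped at their edge. AGA after base 265 was more frequent with this deletion, at 3.80% (2.27 to 5.94%) against 0.545% (0.328 to 0.849%). So was AGT, at 2.95% (1.62 to 4.91%) against 0.0573% (0.0069 to 0.207%). The other member pairs of this deletion had overlapping intervals. The loss of bases 23 to 237, with 422 UMIs and 10 members, had overlapping intervals for all its member pairs but 1. The exception was the loss of base 266, at 2.61% (1.31 to 4.62%) against 0.565% (0.345 to 0.871%).

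Other joining deletions were concentrated in 1 allele. In these mirror-image layouts 43 deletions had at least 1 member, and 16 of them had over 50% of their UMIs in 1 allele. Of the 16, 14 held 11 to 34 UMIs in all, where a member with its minimum of 10 UMIs readily makes up most of the total. Among the 43, 15 held 100 or more UMIs. In 13 of the 15, the largest allele held 12.5 to 31.3% of the deletion's UMIs. The loss of bases 50 to 263 was different: GG after base 22 was present in 157 of its 210 UMIs (74.8%, 68.3 to 80.5%), its next largest allele had 9 UMIs, and the same GG made up 5.21% (4.32 to 6.22%) of UMIs with other deletions. The loss of bases 23 to 240 with ACG added carried C after base 266 in 96 of 114 UMIs (84.2%, 76.2 to 90.4%), its next largest allele had 3 UMIs, and that C made up 4.52% (3.89 to 5.23%) of UMIs with other deletions. Their ratios to the totals of the layout were 6.65 and 12.4. The loss of bases 50 to 264, 1 base longer than the first of these, was spread over 7 members, with its largest allele at 26.5%. Whether such concentration comes from 1 edited ancestor, from RNA level or from repeated editing was not tested.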

How the data were processed

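Total RNA of liver lobes was extracted, reverse transcribed with a UMI primer specific to the array and amplified by nested PCR, per the labels' protocols. Per the submitters' processing notes the build was mm10, and for the allele caller, its filters and the read depth the sources used here state nothing. The authors deposited 2 text lists with no numeric values: the events of each allele, and its 12-base UMIs. UMIs per allele and all other values were computed from them. The layout of the array (5 bases, 10 targets of 20 bases with linkers of 7, then 8 bases) is general knowledge, since no array sequence was used; no listed position exceeded 274 of its 276 bases. Targets with an event in the 7 bases around the cut were taken as altered. Shares have exact binomial (Clopper-Pearson), UMI counts exact Poisson and medians exact order-statistic intervals, all at 95%. UMIs of 1 cell are not independent, so intervals cover counting error only. No p-value was computed. Named alleles were the 10 largest, the largest of each event number, the 5 highest and 5 lowest ratios, the length extremes and the 5 commonest events. Members and lists were chosen with earlier results of these data known. Alternatives changed the UMI minimum, UMI collapsing, the event and allele definitions and the event frequency. The calculations were checked on simulated alleles. Python 3.11.15, numpy 2.4.6 and scipy 1.17.1 were used.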

Additional observations from a re-analysis of the deposited data

How the results depend on the processing

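There were 60 values under 11 alternative settings for 8 results. Of these, 44 lay within the interval of the reported value (for the number of members, within 1.5 times) and 16 did not. Only the median log2 ratio could have changed sign. It stayed positive, which the UMI minimum favours by construction. At a minimum of 5 UMIs there were 948 members with 29.0% of UMIs, 49.2% had 2 events, 85.8% had inserted bases, the median length was 66 bases, the median log2 ratio to the product 7.04, and 78.8% had every event in another allele. At 20 UMIs there were 78 members with 8.79% of UMIs, 84.6% had 2 events and the median log2 ratio was 3.61. Joining events with fewer than 7 kept bases between them gave 15.1% of UMIs, leaving out the largest member 15.1% (15.05%) by construction, and folding 910 alleles with 1 different inserted base into larger ones 20.5%, with 58.3% at 2 events. The product taken within the layout, for 2-event members and added after seeing the data, gave a median log2 ratio of 0.83. Leaving the member out of its event frequencies gave 4.09 over 217 members, since the other 31 then had an event in no allele. The cause of these shifts was not tested. No paired analysis was possible because 1 library was analysed. Depth limits the rarest events, since a frequency resting on 1 allele is the lowest this library can give.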

Other observations

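UMI sequences were compared between abundant and rarer multi-event alleles. Within the members 1 pair of UMIs lay 1 base apart among 5026 UMIs, against 2 pairs among 21043 UMIs of multi-event alleles with 1 to 9 UMIs. A UMI of another allele lay 1 base away for 9.95% of members' UMIs (9.13 to 10.8%) and for 10.3% of the others (9.87 to 10.7%), and 5 of the members' UMIs had such a neighbour in an allele sharing all but 1 event. G and C together made up 44.1% of UMI bases in members and 44.2% in the rarer alleles.

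Among members with 2 events, 8 exceeded the number given by their layout's totals more than 20 times; they were picked after their values were seen. The highest ratios were 132 for a loss of bases 15 to 254 with a loss of 263 to 266 (10 UMIs) and 130 for AGG after base 22 with a loss of bases 47 to 269 (11 UMIs). The most abundant was a loss of bases 23 to 239 with ATA after base 265, at 35 UMIs against 1.64 given by the totals. Substitutions were listed in 3 members, C50G, C104G and C212G, each a C-to-G change 1 base after the cut of targets 2, 4 and 8, with 13, 11 and 12 UMIs.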
